A study of Mus musculus with 4 samples.

Results

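Endoderm-like epithelial cells were followed in embryoid bodies, balls of differentiating mouse embryonic stem cells of the R1 line. A barcode counted as endoderm-like when it held at least 500 genes, at most 15% of unique molecular identifiers (UMIs) from mitochondrially encoded genes, and at least 1 UMI in 4 or more of 8 genes, namely Epcam, Cldn6, Foxa2, Foxa1, Ttr, Rbp4, Spink1 and Apoa1. The rule took 448 of 13808 kept cells (3.24%) in 4 droplet-based single-cell libraries. Each library was a condition of its own with no replicate: Hx8 was grown for 7.33 days in normoxia and then 16 h in hypoxia, Nx8 for 8 days in normoxia, Hx10 for 8 days in normoxia and then 48 h in hypoxia, and Nx10 for 10 days in normoxia. All 4 came from the same line with no allele or agent named apart from oxygen, and the sources used here do not state the oxygen level. Because the cells were chosen by their RNA and every condition had 1 library, everything below is a description, with no test, and a library cannot be told apart from its condition.

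Endoderm lines the yolk sac and the gut. Visceral endoderm and its yolk sac derivatives take up nutrients through endocytic receptors and secrete carrier proteins such as apolipoproteins, transthyretin and alpha-fetoprotein, while definitive endoderm gives the gut tube, liver, pancreas and lung. Both share an epithelial program of tight junctions and keratins and transcription factors of the FOXA, GATA and HNF families, so the 8 genes of the rule do not separate them. In low oxygen, hydroxylases of the EGLN family lose activity and the hypoxia-inducible factors (HIF) accumulate and switch on genes for glycolysis, glucose uptake and oxygen delivery.

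The endoderm-like cells held 4528820 UMIs in Hx8, 6452657 in Nx8, 660694 in Hx10 and 1204848 in Nx10. Their median depth was 22860.5 UMIs and 5309 genes in Hx8, 25137 UMIs and 5680 genes in Nx8, 13382 UMIs and 3487 genes in Hx10, and 23874 UMIs and 5504.5 genes in Nx10. Levels are CPM, the UMIs of a gene per 1000000 UMIs summed over the cells of a library. At 20 CPM the exact Poisson interval spanned −19.5% to 22.8% of the value in Hx8, −16.5% to 18.8% in Nx8, −46.4% to 70.3% in Hx10 and −35.9% to 48.7% in Nx10, so the day 10 levels are the less precise. The 5 deepest cells held 12.5% of these UMIs in Hx8, 8.31% in Nx8, 41.6% in Hx10 and 22.2% in Nx10, and the 33 cells of Hx10 are therefore few for any statement about a typical cell. No kept barcode of an endoderm-like cell was shared between libraries, against 13 shared among all kept cells. The doublet caller marked 0.0217% to 0.336% of the kept cells of a library and is taken not to have worked. Doublets were not removed. All intervals are at 95% and cover counting error only, apart from those of list medians, which reflect the spread over the genes of the list.

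Endoderm-like cells made up a smaller share of both hypoxic libraries. They were 150 of 3345 kept cells in Hx8 (4.48%, exact binomial interval 3.81 to 5.24%), against 219 of 3168 in Nx8 (6.91%, 6.05 to 7.85%). They were 33 of 4616 in Hx10 (0.715%, 0.493 to 1.00%), against 46 of 2679 in Nx10 (1.72%, 1.26 to 2.28%). The intervals of hypoxia and normoxia did not overlap at day 8, and at day 10 likewise. The rule needs detected UMIs, and the hypoxic libraries were shallower, so cells of 5000 UMIs or more were also thinned to 5000 UMIs. Shallower cells were left out, 166 kept cells in Hx8, 70 in Nx8, 619 in Hx10 and 162 in Nx10. The thinned shares are over the cells that remained. The shares were then 3.81% in Hx8 (3.17 to 4.53%) and 5.97% in Nx8 (5.16 to 6.86%), and 0.50% in Hx10 (0.306 to 0.772%) and 1.07% in Nx10 (0.708 to 1.56%). After thinning the intervals still did not overlap at day 8, but they overlapped at day 10. A smaller share of barcodes is set by all cell types together, and a loss of these cells and a gain of others cannot be told apart.

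**Figure D1:**
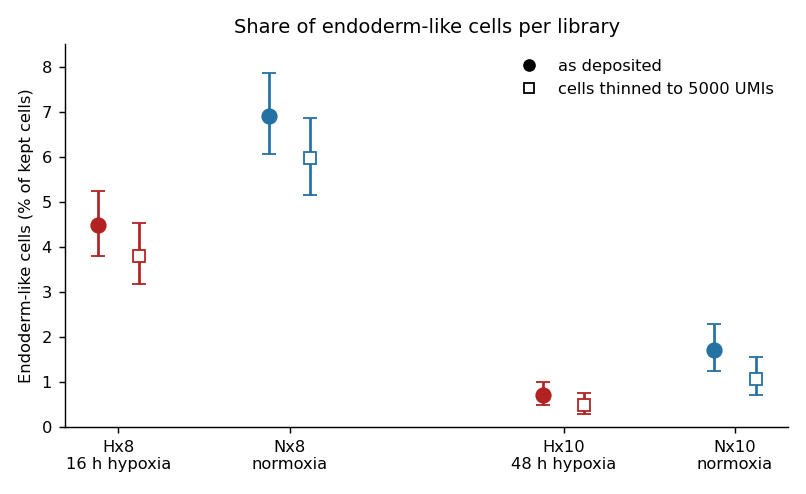
Share of kept cells (percent, vertical axis) that met the endoderm-like rule in each library, with exact binomial intervals. Filled points are cells as deposited. Open squares are the cells of 5000 UMIs or more, thinned to 5000 UMIs, with shallower cells left out. In both kinds of points each hypoxic library sits below the normoxic library of its age, and both day 10 libraries sit below both day 8 libraries; the intervals of the thinned day 10 shares overlap.

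The 8 genes that chose the cells were not equally strong in them. Epcam, a cell adhesion protein of epithelia, was at 573 CPM in Hx8, 546 CPM in Nx8, 288 CPM in Hx10 and 560 CPM in Nx10. Cldn6, a tight junction protein of embryonic epithelia, was at 329 CPM in Hx8, 334 CPM in Nx8, 198 CPM in Hx10 and 227 CPM in Nx10. Rbp4, the plasma carrier of retinol, was at 6132 CPM in Hx8, 5194 CPM in Nx8, 3239 CPM in Hx10 and 3052 CPM in Nx10. One cell held 21.0% of its UMIs in Hx10 and 18.4% in Nx10, and the median cell had 4404 CPM in Hx10 and 1279 CPM in Nx10, so the sums of day 10 were closer than the cells. Ttr, the carrier of thyroid hormone, was at 1920 CPM in Hx8, 3119 CPM in Nx8, 1043 CPM in Hx10 and 1116 CPM in Nx10. Of its UMIs, 30.5% in Hx10 and 43.2% in Nx10 lay in 1 cell, and the median cell had 747 CPM in Hx10 and 323 CPM in Nx10.

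The secreted trypsin inhibitor Spink1 and the lipoprotein component Apoa1 had lower summed levels in both hypoxic libraries. Spink1 was at 1227 CPM in Hx8 and 3003 CPM in Nx8, and at 348 CPM in Hx10 and 1071 CPM in Nx10. At day 10 that order rested on 1 cell, which held 63.3% of the Spink1 UMIs of Nx10: the median cell had 299 CPM in Hx10 and 141 CPM in Nx10, and 84.8% of cells in Hx10 and 60.9% in Nx10 had a UMI. Apoa1 was at 147 CPM in Hx8 and 394 CPM in Nx8, and at 46.9 CPM in Hx10 and 334 CPM in Nx10. Foxa2 and Foxa1, forkhead factors that open chromatin in endoderm, had ratios of opposite sign at day 8 and were both lower in Hx10 than in Nx10. Foxa2 was at 67.8 CPM in Hx8 and 107 CPM in Nx8, and at 36.3 CPM in Hx10 and 70.5 CPM in Nx10, while Foxa1 was at 53.9 CPM in Hx8 and 44.0 CPM in Nx8, and at 12.1 CPM in Hx10 and 116 CPM in Nx10. These values belong to the rule and support nothing by themselves.

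In the other kept cells none of the 8 genes passed 11.1 CPM in any library. Free RNA gives UMIs in cells that do not express a gene, and cells with macrophage markers, which should lack Epcam, served as a gauge. They were taken from the kept cells outside the endoderm-like rule, which can lower the gauge. The rule itself raises the share of endoderm-like cells with Epcam, so the values are a description. Epcam had a UMI in 9.09% of the macrophage-marker cells of Hx8 (n = 33), 1.92% of Nx8 (n = 52), 0% of Hx10 (n = 106, which allows a share of up to 2.83%) and 0.532% of Nx10 (n = 188), against 96.7%, 96.8%, 97.0% and 100% of endoderm-like cells in the same order. The macrophage-marker cells had median depths of 24499 UMIs in Hx8, 37929 in Nx8, 13785 in Hx10 and 20818.5 in Nx10. Rbp4 had a UMI in 6.06% of macrophage-marker cells of Hx8, 25% of Nx8, 3.77% of Hx10 and 1.60% of Nx10.

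Of the members, 44 had exactly 4 of the 8 genes and 74 more kept cells stopped at 3, while 124 members had all 8. At the edge, Epcam was at 562 CPM in the Hx8 cells with 4 genes and 273 CPM in those with 3, and at 173 CPM with 4 and 179 CPM with 3 in Nx8. In Hx10 it was at 249 CPM with 4 genes and 134 CPM with 3, and in Nx10 at 625 CPM with 4 and 251 CPM with 3. Rbp4 was at 1564 CPM with 4 genes and 199 CPM with 3 in Hx8, and at 1712 CPM with 4 and 1761 CPM with 3 in Hx10, so cells outside the threshold held endodermal RNA as well.

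**Figure D2:**
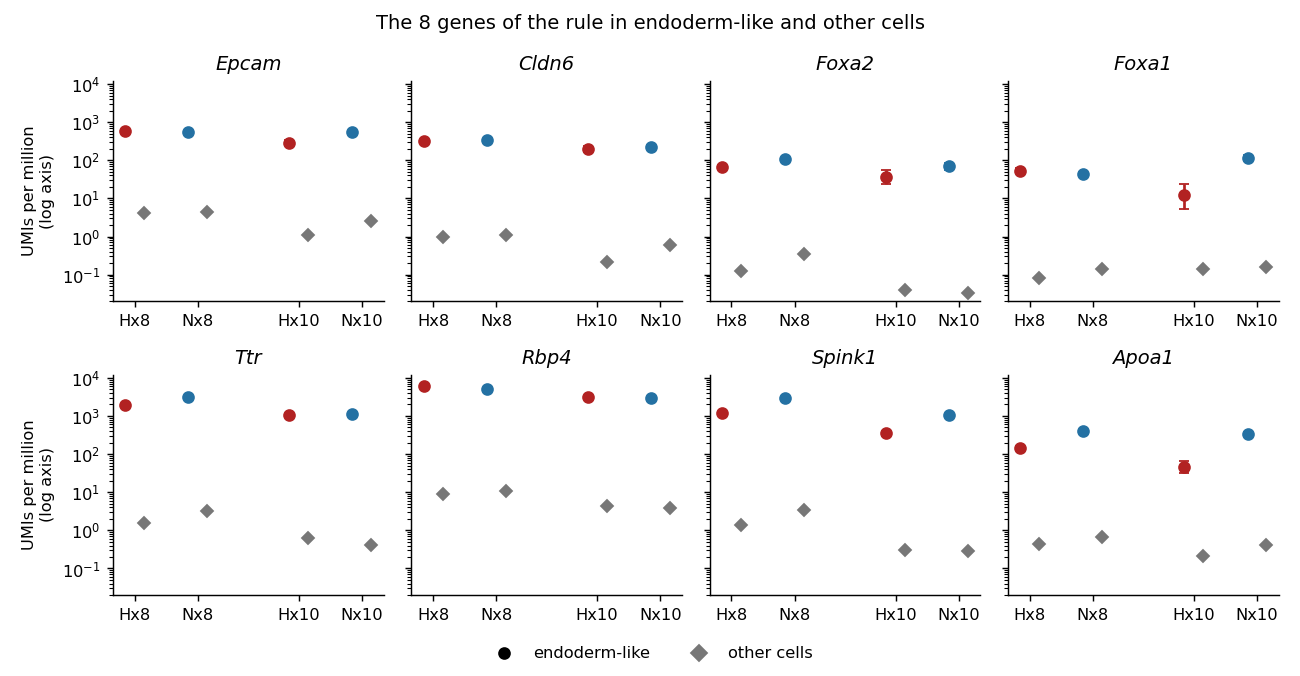
Levels of the 8 genes of the rule (CPM of summed UMIs, log axis) in endoderm-like cells and in other kept cells of the 4 libraries, with exact Poisson intervals; circles are endoderm-like cells (red in hypoxia, blue in normoxia) and grey diamonds other kept cells. In every panel the endoderm-like points lie far above the other cells of the same library, which the rule fixes, and the distance is shortest for Foxa1 in Hx10, at 12.1 CPM.

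Outside the rule, the genes that stood higher in these cells included junction and keratin genes, secreted carriers and gut hormones. A mean of 20 CPM or more was reached by 6792 genes, of which 264 (3.89%) were higher in endoderm-like than in other kept cells by 2-fold or more in all 4 libraries, and 291 (4.28%) lower. With TMM scaling these counts were 208 and 374. Among list genes that passed the filter, higher in all 4 libraries were 14 of 19 junction and keratin genes, 9 of 10 secreted carriers, all 5 gut hormones and gut secreted proteins, 3 of 6 endoderm transcription factors and 3 of 10 genes of yolk sac endocytosis. The filter let through 19 of 33, 10 of 34, 5 of 29, 6 of 22 and 10 of 18 listed genes in that order. Of the 10 carriers, 1 was lower in all 4 libraries. Genes of parietal endoderm and basement membrane went another way, with 1 higher and 2 lower in all 4 libraries of 13 that passed. Their summed level was below that of other cells in each library, at 1972 to 3501 CPM against 3592 to 5812 CPM. Genes that pass through their level in endoderm-like cells had to differ, so these counts describe and do not support the label.

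The secreted carriers led. Alpha-fetoprotein (Afp), the main serum protein of yolk sac and fetal liver, was at 490 CPM in Hx8, 519 CPM in Nx8, 566 CPM in Hx10 and 1912 CPM in Nx10, against at most 1.35 CPM in other cells of any library. Its mean log2 ratio of endoderm-like over other cells was 8.66, on the log2(CPM + 1) scale used for every ratio here. The calcium-binding S100g followed with 8.53, the lipoprotein component Apom with 7.57 and Apob, the structural protein of chylomicrons and VLDL, with 7.32. The claudin Cldn7 had 7.26, the peptide hormones Pyy and Ghrl, of gut endocrine cells, 6.93 and 6.85, and the mucosal peptide Tff3 6.72. Nepn, a proteoglycan of gut endoderm, had a mean log2 ratio of 6.45, from 543 CPM in Hx8, 672 CPM in Nx8, 3.03 CPM in Hx10 and 134 CPM in Nx10.

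Junction genes differed in how even they were across libraries. Of the junction and keratin list, 6 genes were higher and 3 lower of 31 in Hx8 over Nx8 by 1.5-fold or more, 6 higher and 5 lower of 30 in Hx10 over Nx10, and 7 higher and 0 lower of 30 in Nx10 over Nx8. Over all genes of 5 CPM or more, 7.45% were higher and 12% lower in Hx8 over Nx8. The shares were 8.81% and 24.7% in Hx10 over Nx10, and 9.16% and 9.56% in Nx10 over Nx8. Cldn7, a component of epithelial tight junctions, was at 320 CPM in Hx8, 438 CPM in Nx8, 315 CPM in Hx10 and 390 CPM in Nx10. Cdh1, the cadherin of adherens junctions, was at 214 CPM in Hx8, 253 CPM in Nx8, 179 CPM in Hx10 and 256 CPM in Nx10, with a mean log2 ratio of 6.25. Crb3, an apical polarity protein, lay between 78.8 and 120 CPM in the 4 libraries. The keratins Krt8 and Krt18 were also expressed in other cells: Krt8 was at 1989 CPM in endoderm-like and 956 CPM in other cells of Hx8, and at 922 CPM in endoderm-like and 165 CPM in other cells of Nx10.

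Among transcription factors, Onecut1, a regulator of liver and pancreas, was at 34.7 CPM in Hx8, 35.8 CPM in Nx8, 19.7 CPM in Hx10 and 242 CPM in Nx10. Gata4 was at 176 CPM in Hx8, 196 CPM in Nx8, 96.9 CPM in Hx10 and 123 CPM in Nx10 in endoderm-like cells, while Gata6 was lower than in other cells, as at 83.9 CPM in endoderm-like and 192 CPM in other cells of Hx8. None of the 16 genes of primitive streak and early definitive endoderm reached the 20 CPM filter, which averages endoderm-like and other cells of every library. They were not absent from endoderm-like cells. The morphogen Shh, of this list, was at 58.1 CPM in endoderm-like cells of Nx10 and at 0 in Hx10. The summed list was at 55.0 CPM in Hx8, 109 CPM in Nx8, 22.7 CPM in Hx10 and 89.6 CPM in Nx10. In other cells it was at 6.94, 8.57, 15.4 and 8.01 CPM in the same order.

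Of the markers of other cells, the summed mesenchymal, macrophage and erythroid levels were lower than in the other kept cells of each library, while the summed endothelial and pluripotency levels were higher in some or all. Of 16 mesenchymal genes that passed, 12 were at least 2-fold lower in all 4 libraries and none was higher. Col1a1, a chain of type I collagen, was at 253 CPM in Hx8, 183 CPM in Nx8, 65.1 CPM in Hx10 and 29.0 CPM in Nx10, against 2416, 2168, 1701 and 2816 CPM in other cells in the same order. The summed mesenchymal level of endoderm-like cells was 3434 CPM in Hx8, 2348 CPM in Nx8, 9227 CPM in Hx10 and 1469 CPM in Nx10, against 15001 to 19286 CPM in other cells, so Hx10 held the most mesenchymal RNA. The summed macrophage markers were at 19.0 to 74.4 CPM, against 125 to 652 CPM in other cells. The summed endothelial markers were at 503 CPM in Hx8, 274 CPM in Nx8, 397 CPM in Hx10 and 105 CPM in Nx10, against 290, 287, 101 and 247 CPM in other cells in the same order. Most of that was Flt1, a receptor of VEGF, at 406 CPM in Hx8, 216 CPM in Nx8, 380 CPM in Hx10 and 76.4 CPM in Nx10, while the endothelial cadherin Cdh5 was at 7.95 CPM in Hx8, 0.155 CPM in Nx8 and 0 in both day 10 libraries. The summed pluripotency markers were above those of other cells in all 4 libraries, at 104 CPM in endoderm-like and 64.5 CPM in other cells of Hx8, 214 CPM in endoderm-like and 68.6 CPM in other cells of Nx8, 71.1 CPM in endoderm-like and 59.9 CPM in other cells of Hx10, and 88.0 CPM in endoderm-like and 74.0 CPM in other cells of Nx10. These are sums: of the 2 pluripotency genes that passed the 20 CPM filter, 1 was at least 2-fold higher and 1 at least 2-fold lower in all 4 libraries. The part of the pluripotency markers in the results below was not tested. The summed erythroid markers were at 367 CPM in Hx8, 76.4 CPM in Nx8, 1.51 CPM in Hx10 and 392 CPM in Nx10, and of the embryonic globin Hba-x 93.0% of the UMIs of Hx8 and 99.3% of those of Nx10 lay in 1 cell. Members with more UMIs of Col1a1, Col1a2, Col3a1, Dcn and Lum together than of the rule genes numbered 8 in Hx8, 6 in Nx8, 1 in Hx10 and 1 in Nx10. The other mesenchymal genes, such as Tagln, Acta2 and Vim, did not enter this count.

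The endoderm-like cells fell into 6 groups when clustered among themselves, and their leading genes describe what varied. The largest group, 158 cells, was led by lipoprotein genes (Apoc2, Apob, Apoa1 and Apom) and had the highest summed secreted carriers, at 8991 CPM, and yolk sac endocytosis genes, at 4831 CPM. A group of 82 cells, led by Rasgrf2, Lrrc3b and the gut keratin Krt20, had 3085 CPM of carriers and 2362 CPM of gut hormones and secreted proteins. Another 82 cells were led by Itih2, the morphogen Shh, Ambp and Kirrel3 beside globin RNA, with the lowest carriers, at 2176 CPM, and the highest G2 and M phase genes, at 6897 CPM. Its globin and macrophage UMIs came largely from single cells.

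Of the other 3 groups, 60 cells led by the stress genes Gadd45b, Ier3, Ppp1r15a, Atf4 and Ddit3 had a median of 7944.5 UMIs and 2234 genes, the lowest of the 6, and a median of 0.224% mitochondrial UMIs, where the other groups had 1.94 to 3.34%. A group of 33 cells was led by the actin gene Acta1, S100a6 and Tagln and held 7538 CPM of mesenchymal RNA. The last 33 cells, led by Zfpm2, Cdh11 and Dcn, genes of mesenchyme, held 10790 CPM of mesenchymal RNA, the deepest median, 39440 UMIs, and all 4 doublet calls made among members. They still held 6026 CPM of the 8 rule genes, against 905 CPM of mesenchymal RNA and 20490 CPM of rule genes in the lipoprotein-led group.

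The groups were spread unevenly over libraries, which bears on every contrast below. The Rasgrf2-led group held 42.3% and the lipoprotein-led group 26.3% of the endoderm-like UMIs of Hx8, against 8.61% and 48.2% of those of Nx8. In Hx10 the stress-led group held 47.3% and the Acta1-led group 39.4%, while in Nx10 the Shh-led group held 58.5% and the lipoprotein-led group 18.0%. A difference between libraries can thus hold a difference in the mix of groups, and for day 8 the values within 2 groups are given.

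**Figure D3:**
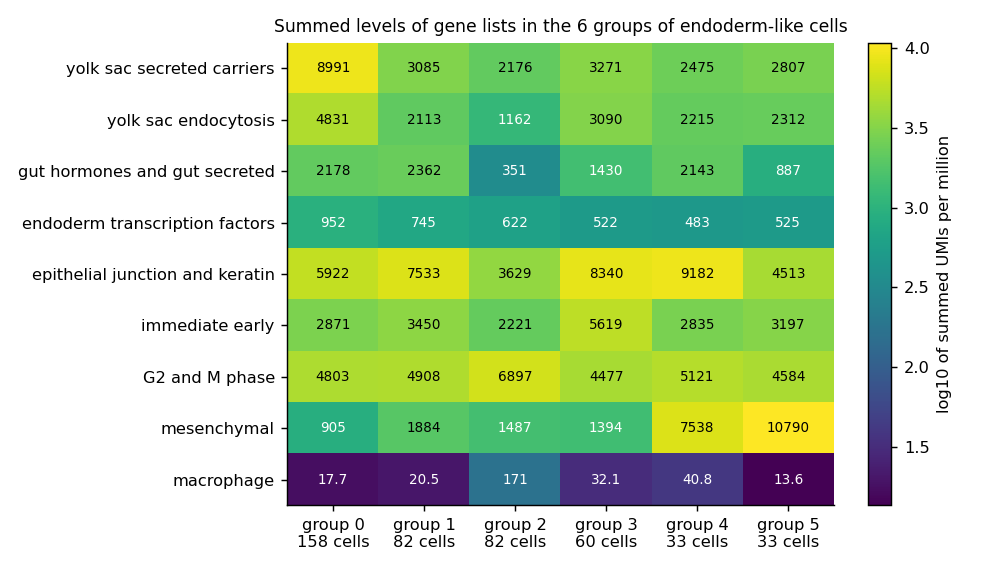
Summed levels of 9 gene lists (CPM, colour on a log10 scale) in the 6 groups of endoderm-like cells, numbered 0 (lipoprotein-led), 1 (Rasgrf2-led), 2 (Shh-led), 3 (stress-led), 4 (Acta1-led) and 5 (Zfpm2-led). The lipoprotein-led group has the most carrier RNA, at 8991 CPM, and the Zfpm2-led group the most mesenchymal RNA, at 10790 CPM.

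The comparison of Hx8 with Nx8 asks what 16 h of hypoxia went with in these cells. The HIF program was higher and mitochondrially encoded RNA lower, as in the other cells, while carrier, endocytic and metallothionein genes were lower in endoderm-like cells. A mean of 20 CPM or more was reached by 6814 genes, of which 176 (2.58%) were higher in Hx8 by 2-fold or more, with an interval that left out equality, and 99 (1.45%) lower. In other cells 1.75% were higher and 1.13% lower. With TMM scaling, which moved all log2 ratios by 0.11, the counts were 233 and 64.

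Of the HIF targets 49 had a mean of 5 CPM or more, and 46 of them were higher by 1.5-fold or more and 0 lower, where 7.45% and 12% of all 10787 such genes were. The median log2 ratio was 1.38 (1.09 to 1.78), against −0.08 over all genes, and in other cells it was 1.63. The prolyl hydroxylase subunit P4ha2, which modifies collagen, was at 198 CPM in Hx8 (185 to 211) and 22.6 CPM in Nx8 (19.1 to 26.6), a log2 ratio of 3.07. Pgk1, a glycolytic kinase, was at 4178 CPM in Hx8 and 1123 CPM in Nx8 (1.89), and the oxygen sensor Egln3 was at 44.6 CPM in Hx8 and 9.61 CPM in Nx8 (2.10). Lactate dehydrogenase Ldha was at 2638 CPM in Hx8 and 1339 CPM in Nx8 (0.98).

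The promoters of these genes are shown because the HIF-binding core, ACGTG or GCGTG, is the sequence through which HIF acts. The stretches lie upstream of the RefSeq gene starts (GRCm38.p6), written along the strand of the gene. Capitals mark the core on either strand, read as CACGT or CACGC where it lies on the opposite one; a palindromic CACGTG counts once on each strand.
P4ha2, chr11:54100802-54100874, plus strand: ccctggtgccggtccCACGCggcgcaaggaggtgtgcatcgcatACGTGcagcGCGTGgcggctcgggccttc
Pgk1, chrX:106186935-106186988, plus strand: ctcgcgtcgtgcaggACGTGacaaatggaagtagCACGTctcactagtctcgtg
Ldha, chr7:46845644-46845789, plus strand: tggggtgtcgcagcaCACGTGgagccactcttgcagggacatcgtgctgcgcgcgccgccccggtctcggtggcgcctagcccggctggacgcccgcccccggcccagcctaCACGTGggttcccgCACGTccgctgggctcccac
Egln3, chr12:54204084-54204118, minus strand: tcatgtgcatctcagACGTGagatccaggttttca
P4ha2 shows 3 matches, Pgk1 2, Ldha 5 and Egln3 1. Of 18 hypoxia genes looked up, 16 had a promoter window of 250 bases and 14 of these held the core. It was also in 38.6% of all 32851 windows, and 41.5% of all 27025 genes held it in any of their windows. A match is a description of the letters, not a bound site.

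Other HIF targets were further apart. The early response gene Ier3 was at 187 CPM in Hx8 and 17.2 CPM in Nx8, a log2 ratio of 3.37 (3.15 to 3.74). Pfkfb3, which makes the activator of phosphofructokinase, was at 73.5 CPM in Hx8 and 7.90 CPM in Nx8 (3.07). Ero1l, an oxidase of protein folding, was at 346 CPM in Hx8 and 53.2 CPM in Nx8 (2.68), and Ddit4, an inhibitor of mTOR signalling, at 141 CPM in Hx8 and 20.3 CPM in Nx8 (2.74). All 4 were higher by more than the counting error. Ankrd37 (2.70), the glycogen branching enzyme Gbe1 (2.51), the lipoprotein receptor Vldlr (2.78), Ndrg1 (2.5), the phosphofructokinase Pfkp (2.95) and the secreted Stc2 (2.70) and Adm (2.69) were higher as well.

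Of 49 HIF targets that passed the filter in both cell classes, 17 had a larger ratio in endoderm-like cells and 32 a smaller one. Among those larger in endoderm-like cells were P4ha2 (3.07, against 2.47 in other cells), Ier3 (3.37, against 2.51), Vldlr (2.78, against 1.29), Pfkp (2.95, against 2.42), Ddit4 (2.74, against 2.37) and Gbe1 (2.51, against 2.19). Several widely used hypoxia markers were among those with the smaller ratio. The angiogenic factor Vegfa was at 102 CPM in Hx8 and 46.3 CPM in Nx8 (1.13), against a log2 ratio of 1.93 in other cells. Bnip3, a mitophagy receptor, was at 279 CPM in Hx8 and 133 CPM in Nx8 (1.06), against 2.36. Slc2a1, the glucose transporter, was at 705 CPM in Hx8 and 378 CPM in Nx8 (0.90), against 1.23. In Nx8 the log2 ratio of endoderm-like over other cells was 1.24 for Vegfa (46.3 and 19.1 CPM) and 1.37 for Bnip3. For Slc2a1 it was only 0.15. Pdk1, which inhibits pyruvate dehydrogenase, was at 78.6 CPM in Hx8 and 29.3 CPM in Nx8 (1.39, against 1.88), and Aldoa at 1742 CPM in Hx8 and 900 CPM in Nx8 (0.95, against 1.44). Whether the difference between the cell classes exceeds culture error was not tested.

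Of 17 glycolysis genes, 13 were higher and 2 lower by the same 1.5-fold limit, and the median was 1.13 (0.94 to 1.29). The 2 lower were the lactate dehydrogenase subunit Ldhb, at 37.8 CPM in Hx8 and 59.2 CPM in Nx8, and Bpgm, which makes bisphosphoglycerate, at 11 CPM in Hx8 and 19.1 CPM in Nx8. Of the 13 mitochondrially encoded genes, 11 were lower and 0 higher, with a median of −1.23 (−1.49 to −0.64). The complex I subunit mt-Nd3 was at 284 CPM in Hx8 and 1223 CPM in Nx8 (−2.10), the ATP synthase subunit mt-Atp6 at 2074 CPM in Hx8 and 6128 CPM in Nx8 (−1.56) and mt-Co1 at 3048 CPM in Hx8 and 4756 CPM in Nx8 (−0.64). The light-strand gene mt-Nd6 was alike, at 39.1 CPM in Hx8 and 39.5 CPM in Nx8. Of 76 nuclear genes of oxidative phosphorylation, 8 were lower and 0 higher, with a median of −0.26.

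**Figure D4:**
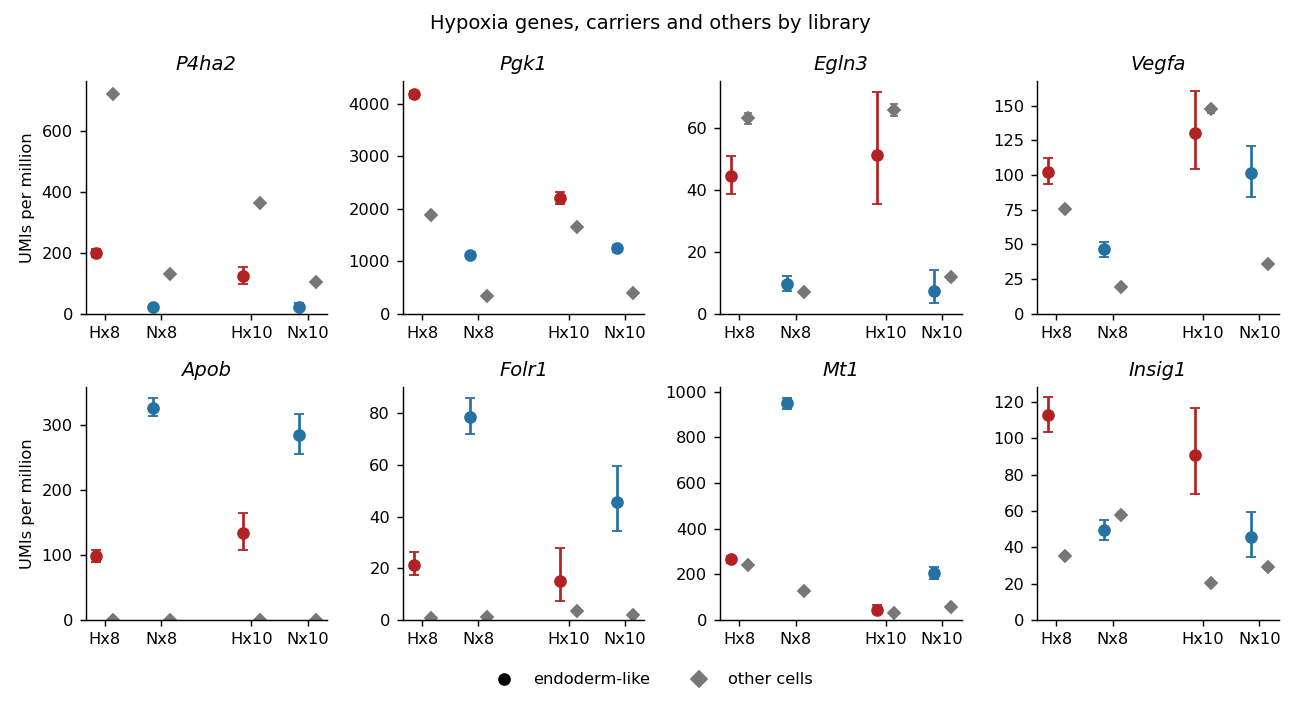
Levels of 8 genes (CPM of summed UMIs, linear axes from 0, exact Poisson intervals) by library, with endoderm-like cells as circles (red in hypoxia, blue in normoxia) and other kept cells as grey diamonds. In endoderm-like cells P4ha2, Pgk1 and Egln3 are higher in both hypoxic libraries and Mt1 and Folr1 lower in both, while the intervals of Vegfa overlap at day 10 and not at day 8.

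Secreted carriers were lower in Hx8, 12 of 19 by at least 1.5-fold with 0 higher and a median of −0.82 (−1.73 to −0.23). Apob was at 97.6 CPM in Hx8 (88.7 to 107) and 326 CPM in Nx8 (313 to 341), a log2 ratio of −1.73. Apoc2, the activator of lipoprotein lipase, was at 54.8 CPM in Hx8 and 237 CPM in Nx8 (−2.09), and the lipoprotein component Apoc1 at 7.73 CPM in Hx8 and 36.3 CPM in Nx8 (−2.09). Carriers did not all follow, since Afp was at 490 CPM in Hx8 and 519 CPM in Nx8, a log2 ratio of −0.08 (−0.16 to −0.01) that was 0.030 with TMM scaling. Apoe, a ligand of lipoprotein receptors, was at 2438 CPM in Hx8 and 3723 CPM in Nx8 (−0.61).

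Genes of yolk sac uptake were lower too, 9 of 15 with 0 higher and a median of −0.97 (−1.26 to −0.04). Within groups the median was −0.66 in the lipoprotein-led group, with 8 of 15 lower, and −0.17 in the Rasgrf2-led group, with 3 of 11 lower. Folr1, the folate receptor, was at 21.4 CPM in Hx8 and 78.7 CPM in Nx8 (−1.83), and the endocytic receptor Cubn at 3.75 CPM in Hx8 and 12.9 CPM in Nx8 (−1.54). The lysosomal proteases Lgmn, at 90.1 CPM in Hx8 and 209 CPM in Nx8 (−1.20), and Ctsl, at 731 CPM in Hx8 and 1438 CPM in Nx8 (−0.97), were lower, while in other cells Ctsl was at 423 CPM in Hx8 and 358 CPM in Nx8. Other genes among the lowest ratios were the glycine-cleavage enzyme Gldc (−1.68), the matrix protein Reln (−1.92), the protease Ctsc (−1.95) and the carbonic anhydrase Car2 (−1.68). Of 13 endoderm transcription factors, 2 were lower, among them Sox17, at 30.3 CPM in Hx8 and 57.0 CPM in Nx8.

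The metallothioneins Mt1 and Mt2, which bind zinc and copper, were lower in endoderm-like cells of Hx8 but not in other cells. Mt1 was at 265 CPM in Hx8 and 949 CPM in Nx8, a log2 ratio of −1.84 (−1.93 to −1.75), where in other cells it was at 241 CPM in Hx8 and 125 CPM in Nx8 (0.94). Mt2 was at 57.0 CPM in Hx8 and 238 CPM in Nx8 (−2.05), and in other cells at 36.9 CPM in Hx8 and 27.3 CPM in Nx8 (0.42). The zinc importer Slc39a4 was at 6.84 CPM in Hx8 and 17.8 CPM in Nx8. The Mt1 promoter is shown for its metal-response core, TGCACNC or TGCGCNC on either strand, which was found in the windows of both Mt1 and Mt2 and in 21.4% of all windows; capitals mark it.
Mt1, chr8:94179051-94179081, plus strand: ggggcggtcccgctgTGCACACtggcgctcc
In GENCODE the Mt1 gene spans bases 94179082 to 94180327 of chromosome 8 on the plus strand, so the stretch ends next to its annotated start.

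The sterol regulator Insig1 and the hormone gene Ghrl were higher in Hx8. Insig1, which holds back the sterol sensor in the endoplasmic reticulum, was at 113 CPM in Hx8 and 49.4 CPM in Nx8, a log2 ratio of 1.17 (0.99 to 1.40), and in other cells at 35.4 CPM in Hx8 and 57.9 CPM in Nx8 (−0.69). Among genes with a mean of 20 CPM or more in both cell classes, Mt1 and Insig1 were the 2 that differed by at least 2-fold in endoderm-like cells and by at least 1.5-fold the opposite way in other cells; Mt2 and Car2 had opposite signs too, but with smaller ratios in other cells (0.42 and 0.34). The 24 cholesterol genes had a median of 0.29 (0.00 to 0.41), with 1 higher and 2 lower by 1.5-fold, and −0.30 in other cells. Ghrl, which encodes ghrelin, was at 1024 CPM in Hx8 and 325 CPM in Nx8 (1.65), while Pyy, a gut peptide, was at 601 CPM in Hx8 and 524 CPM in Nx8 (0.20). One cell held 15.4% of the Ghrl UMIs of Hx8 and 14.5% of those of Nx8.

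Over all endoderm-like cells few proliferation genes differed, while in the Rasgrf2-led group many G2 and M phase genes did. The S phase list had 3 of 48 genes lower and 0 higher and a median of −0.14, whereas in other cells 43 were lower and 0 higher, with a median of −0.94, where 10.7% of all genes were lower and 4.63% higher. The 3 were the replication factors Mcm2 (32.7 CPM in Hx8 and 51.4 CPM in Nx8) and Mcm6 (64.9 CPM in Hx8 and 97.3 CPM in Nx8) and the chromatin factor Cdca7 (20.1 CPM in Hx8 and 41.5 CPM in Nx8). The G2 and M phase list had 2 of 53 higher and 0 lower (median −0.02), and in other cells 1 was higher and 12 lower (−0.43). Within the Rasgrf2-led group 32 of 53 were higher and 0 lower (median 0.93, 0.74 to 1.15), and within the lipoprotein-led group 3 were higher and 6 lower (−0.12), so the value over all cells does not hold in each group. Of 16 p53 targets 4 were higher and 0 lower (median 0.34), and 3 of 15 mesenchymal genes were higher and 1 lower, with a median of 0.37 that did not keep its sign without the Zfpm2-led group (−0.30).

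**Figure D5:**
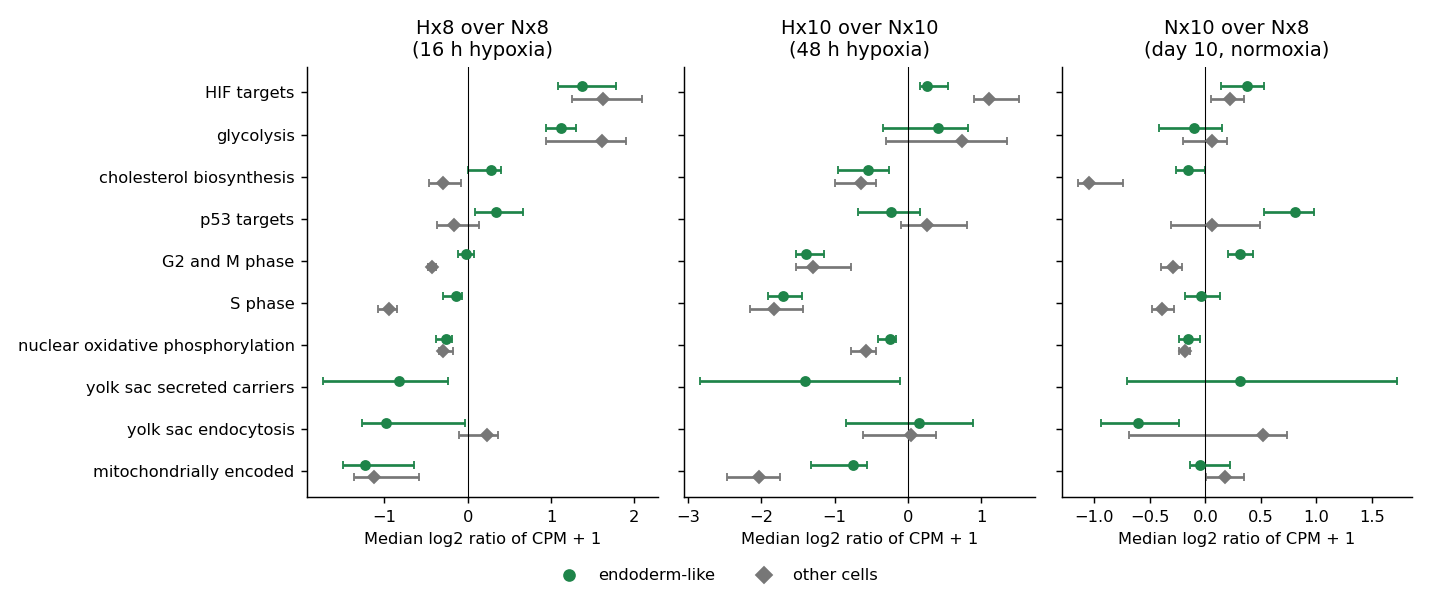
Median log2 ratio with its interval for 10 gene lists in the 3 contrasts, endoderm-like cells as circles and other kept cells as diamonds (horizontal axis, log2 of CPM + 1 ratio); lists with under 6 genes are not drawn. HIF targets lie at 1.38 in endoderm-like cells after 16 h and at 0.25 after 48 h, while in other cells they lie at 1.63 and 1.10.

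Within the lipoprotein-led group (40 cells of Hx8 and 110 of Nx8) and the Rasgrf2-led group (56 cells of Hx8 and 20 of Nx8), an alternative chosen after seeing the data, the HIF ratios were close to those over all members. The median of HIF targets was 1.32 in the first (38 of 49 higher) and 1.37 in the second (33 of 50 higher), and 0 were lower in either. The mitochondrially encoded median was −1.24 in the first and −1.44 in the second. Carriers differed less within groups than over all members: the median was −0.30 in the first, with 1 higher and 6 lower of 17, and −0.28 in the second, against −0.82. Apob was at 295 CPM in Hx8 and 607 CPM in Nx8 in the first group (−1.04) and at 35.5 CPM in Hx8 and 52.2 CPM in Nx8 in the second (−0.54, −1.20 to 0.13).

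Single genes differed in whether they kept their direction in both groups. Mt1 was at 334 CPM in Hx8 and 1115 CPM in Nx8 in the lipoprotein-led group (−1.74) and at 237 CPM in Hx8 and 441 CPM in Nx8 in the Rasgrf2-led group (−0.89). Folr1 was lower in both (−2.20 in the lipoprotein-led and −1.18 in the Rasgrf2-led group), and Ghrl was higher in both, at 962 CPM in Hx8 and 456 CPM in Nx8 in the first (1.08) and at 1613 CPM in Hx8 and 405 CPM in Nx8 in the second (1.99). Pyy was higher in both as well, by 0.95 and 1.76, though by only 0.20 over all members. Insig1 differed in the first, at 143 CPM in Hx8 and 37.3 CPM in Nx8 (1.92), and hardly in the second, at 99.8 CPM in Hx8 and 91.8 CPM in Nx8 (0.12). Apoc2 was at 169 CPM in Hx8 and 451 CPM in Nx8 in the first (−1.41) and at 21.4 CPM in Hx8 and 14.4 CPM in Nx8 in the second (0.54, −0.54 to 1.88), and Sox17 (−1.05 in the first and 0.42 in the second) and Car2 (−1.19 in the first and 0.31 in the second) had opposite signs as well, with intervals that held equality in the second group. Afp was lower in the first, at 258 CPM in Hx8 and 316 CPM in Nx8 (−0.29), and higher in the second, at 763 CPM in Hx8 and 423 CPM in Nx8 (0.85, 0.65 to 1.06). The cholesterol median was −1.07 in the first and −0.24 in the second, against 0.29 over all members.

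The comparison of Hx10 with Nx10, 48 h of hypoxia, rests on 33 and 46 cells and on libraries with different group mixes. Among the 6525 genes above the 20 CPM filter, 392 (6.01%) were higher in Hx10 by 2-fold or more and 1250 (19.2%) lower. In other cells 5.52% were higher and 19.8% lower. TMM scaling moved all log2 ratios by 0.28 and gave 668 higher and 764 lower. Cell cycle and carrier genes were lower, mesenchymal genes were higher, and HIF targets were higher only in part.

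Among the 51 HIF targets above 5 CPM, 13 were higher by 1.5-fold or more and 5 lower, against 8.81% and 24.7% of all 10587 genes. The median log2 ratio was 0.25 (0.16 to 0.55), against −0.35 over all genes. With the mean of the cells' own CPM in place of the sums, the HIF median was 0.50. In other cells the median of the list was 1.10, where 11.2% of all genes were higher and 43.2% lower by that limit. Egln3 was at 51.5 CPM in Hx10 and 7.47 CPM in Nx10 (2.63, 1.69 to 4.03), P4ha2 at 123 CPM in Hx10 and 23.2 CPM in Nx10 (2.35, 1.76 to 3.07), Ndrg1 at 50 CPM in Hx10 and 5.81 CPM in Nx10 (2.90), and Slc2a1 at 763 CPM in Hx10 and 206 CPM in Nx10 (1.88). Aldoa, an aldolase of glycolysis, was at 1774 CPM in Hx10 and 726 CPM in Nx10 (1.29), Ier3 at 371 CPM in Hx10 and 161 CPM in Nx10 (1.20), and Pgk1 at 2195 CPM in Hx10 and 1245 CPM in Nx10 (0.82).

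Others that were higher in Hx8 had no clear difference in Hx10. Vegfa was at 130 CPM in Hx10 and 101 CPM in Nx10 (0.36, −0.05 to 0.77), while in other cells it was at 147 CPM in Hx10 and 36.0 CPM in Nx10 (2.00). Ldha was at 1035 CPM in Hx10 and 1003 CPM in Nx10 (0.05, −0.09 to 0.18), against a ratio of 1.35 in other cells, and Ero1l at 89.3 CPM in Hx10 and 79.7 CPM in Nx10 (0.16), against 1.92. Pdk1 was at 39.4 CPM in Hx10 and 38.2 CPM in Nx10 (0.04) and Ddit4 at 77.2 CPM in Hx10 and 79.7 CPM in Nx10 (−0.05, −0.57 to 0.46). Bnip3 was lower, at 99.9 CPM in Hx10 and 148 CPM in Nx10 (−0.56, −0.99 to −0.15), where in other cells it was at 127 CPM in Hx10 and 61.9 CPM in Nx10 (1.02). Glycolysis genes were 6 higher and 3 lower of 18 (median 0.41).

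Several stress genes were higher in Hx10, where the stress-led group, with its low depth and 0.224% of mitochondrial UMIs in the median cell, held 47.3% of the UMIs. The median endoderm-like cell had 0.447% of mitochondrial UMIs in Hx10 and 3.24% in Nx10. Nupr1, a stress-induced regulator, was at 145 CPM in Hx10 and 5.81 CPM in Nx10 (4.42), Ddit3, the factor CHOP, at 112 CPM in Hx10 and 23.2 CPM in Nx10 (2.22), and Atf4, the main factor of the integrated stress response, at 238 CPM in Hx10 and 97.9 CPM in Nx10 (1.27). Inducible heat shock proteins were high as well: Hspa1a was at 80.2 CPM in Hx10 and 4.15 CPM in Nx10 (3.98) and Hspa4l at 166 CPM in Hx10 and 17.4 CPM in Nx10 (3.18). The whole stress list, of the unfolded protein and the integrated stress responses, had 7 higher and 3 lower of 26 and a median of 0.31. In other cells 15 were higher and 4 lower of 26, with a larger median of 0.73, where 11.2% of all genes were higher and 43.2% lower. The part of the mix of groups in these values was not tested; without the stress-led group the HIF median was 0.12.

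Mesenchymal genes were also higher. Of 14 mesenchymal genes 8 were higher and 0 lower, with a median of 1.06 (0.02 to 3.17), which was −0.062 when cells with 3 of the 8 rule genes were included. Tagln, an actin-binding protein of smooth muscle, was at 4159 CPM in Hx10 and 80.5 CPM in Nx10 (5.67), and 31.9% of its UMIs in Hx10 lay in 1 cell, where the median cell had 331 CPM. Acta2, the smooth muscle actin, was at 2316 CPM in Hx10 and 73.0 CPM in Nx10 (4.97), with 29.3% in 1 cell. The intermediate filament Vim was at 1697 CPM in Hx10 and 268 CPM in Nx10 (2.66). The Acta1-led group, with its 7538 CPM of mesenchymal RNA, held 39.4% of the UMIs of Hx10, and its part in these values was not tested.

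Among genes seen in at least 10% of cells, with no cell holding over 25% of the UMIs, high ratios outside the lists were the chloride channel protein Clic5 (56.0 CPM in Hx10 and 3.32 CPM in Nx10, 3.72), Fbxo2 (51.5 CPM in Hx10 and 4.15 CPM in Nx10) and the histone genes Hist1h4i (109 CPM in Hx10 and 9.96 CPM in Nx10, 3.33) and Hist1h2bc (218 CPM in Hx10 and 26.6 CPM in Nx10, 2.99). Slc5a3, the transporter of the osmolyte myo-inositol, was at 136 CPM in Hx10 and 19.1 CPM in Nx10 (2.77), and Gsn, which severs actin, at 168 CPM in Hx10 and 24.9 CPM in Nx10 (2.71), with −0.39 in other cells. S100g was at 2140 CPM in Hx10 and 788 CPM in Nx10 (1.44), with 39.2% and 55.7% of the UMIs in 1 cell, so a single cell sets much of each level. The lysosomal protease Ctsh was at 477 CPM in Hx10 and 152 CPM in Nx10 (1.64).

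Lower in Hx10 were the cell cycle genes. The S phase list had 37 of 47 lower and 0 higher (median −1.70) and the G2 and M phase list 42 of 53 lower and 0 higher (−1.39), beside medians of −1.82 and −1.30 in other cells. The cyclin Ccnd1 was at 1.51 CPM in Hx10, a single UMI, and 49.0 CPM in Nx10 (interval −10.34 to −2.48), and the mitotic kinase Aurkb at 1.51 CPM in Hx10, a single UMI, and 57.3 CPM in Nx10 (−10.57 to −2.72). Of 13 mitochondrially encoded genes 10 were lower and 0 higher, with a median of −0.74, against −2.03 in other cells. With the mean of the cells' own CPM in place of the sums, in which the 5 deepest cells of Hx10 hold 41.6%, the median was −1.19. Here mt-Nd3 was at 378 CPM in Hx10 and 1143 CPM in Nx10 (−1.59), and mt-Co1 at 4972 CPM in Hx10 and 5776 CPM in Nx10 (−0.22, and 0.060 with TMM scaling).

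Endodermal genes were lower in Hx10 too. Of 19 carriers 1 was higher and 11 lower, with a median of −1.41 (−2.83 to −0.11), and of 16 endoderm transcription factors 7 were lower and 0 higher (−0.72, −3.01 to −0.12). Afp was at 566 CPM in Hx10 and 1912 CPM in Nx10 (−1.75), Onecut1 at 19.7 CPM in Hx10 and 242 CPM in Nx10 (−3.56) and Foxa1 at 12.1 CPM in Hx10 and 116 CPM in Nx10 (−3.16). The protease inhibitor precursor Ambp was at 0 in Hx10 and 63.9 CPM in Nx10, at least 14.1-fold lower, and Shh at 0 in Hx10 and 58.1 CPM in Nx10, at least 12.8-fold lower. The receptor Bmpr1b (at least 12.4-fold) and the factor Sox2 (at least 9.32-fold) were at 0 in Hx10 as well, all on the same floor. The Shh-led group had no cell in Hx10 and 26 in Nx10, and fewer cells of that group and less RNA per cell cannot be told apart in these sums.

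The gut hormones Ghrl and Pyy and the metallothioneins Mt1 and Mt2 were lower in Hx10. Ghrl was at 19.7 CPM in Hx10 and 113 CPM in Nx10 (−2.46), opposite to day 8, and Pyy at 18.2 CPM in Hx10 and 146 CPM in Nx10 (−2.94); 61.5% of the Ghrl UMIs of Hx10 and 41.2% of those of Nx10 lay in 1 cell. Mt1 was at 43.9 CPM in Hx10 and 205 CPM in Nx10 (−2.20), against −0.92 in other cells, and Mt2 at 18.2 CPM in Hx10 and 42.3 CPM in Nx10 (−1.18). Insig1 was at 90.8 CPM in Hx10 and 45.6 CPM in Nx10 (0.98), while the 23 cholesterol genes had 1 higher and 7 lower (median −0.54). Genes of yolk sac uptake had 5 higher and 1 lower of 14 (median 0.15), and Lgmn was among them, at 183 CPM in Hx10 and 48.1 CPM in Nx10 (1.91).

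The 2 hypoxia contrasts share no library. Of 6136 genes that passed the 20 CPM filter in both, 25 were at least 2-fold higher in both, 17.1% of the 146 called after 16 h and 8.33% of the 300 called after 48 h, and 27 were at least 2-fold lower in both, 37.0% of 73 and 2.27% of 1187. Over all 6136 genes 4.89% were higher and 19.3% lower after 48 h. The genes higher in both included P4ha2, Ndrg1, Egln3, Pfkfb3, Pfkp, Ier3 and Vim. Those lower in both included Mt1, Mt2, Folr1, Gldc, Apoa1, Apoc1, Cdca7 and Ccnd1. Of the genes higher after 16 h, 19 (13.0%) were at least 2-fold lower after 48 h, and of those lower after 16 h, 9 (12.3%) were higher.

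The comparison of Nx10 with Nx8 asks how the cells of normoxic cultures differed with age, and it shares its libraries with both hypoxia contrasts. Afp, Onecut1 and p53 targets were higher at day 10, and mesenchymal, metallothionein and uptake genes were lower. Among the 6949 genes above the 20 CPM filter, 170 (2.45%) were higher at day 10 by 2-fold or more and 192 (2.76%) lower, and in other cells 2.97% were higher and 1.52% lower. By 1.5-fold, over 10921 genes of 5 CPM or more, 9.16% were higher and 9.56% lower.

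Onecut1 was at 242 CPM in Nx10 and 35.8 CPM in Nx8 (2.73, 2.5 to 3.01) and its relative Onecut2 at 127 CPM in Nx10 and 12.6 CPM in Nx8 (3.24). Afp was at 1912 CPM in Nx10 (1835 to 1992) and 519 CPM in Nx8 (502 to 537), a log2 ratio of 1.88, and the median cell had 985 CPM in Nx10 and 85.0 CPM in Nx8. Isl1, a factor of foregut derivatives among other tissues, was at 73.9 CPM in Nx10 and 10.7 CPM in Nx8 (2.68), Foxa1 at 116 CPM in Nx10 and 44.0 CPM in Nx8 (1.38), and the gut factor Klf5 at 83.8 CPM in Nx10 and 21.4 CPM in Nx8 (1.92). Of 16 endoderm transcription factors 5 were higher and 5 lower. The lung and thyroid factor Nkx2-1 was low in both, at 12.4 CPM in Nx10 and 0.310 CPM in Nx8, and Sox17 was lower, at 15.8 CPM in Nx10 and 57.0 CPM in Nx8 (−1.79).

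Carriers did not move together with age, with 6 higher and 6 lower of 22 (median 0.31). Beside Afp, Ambp was at 63.9 CPM in Nx10 and 8.21 CPM in Nx8 (2.82), vitronectin Vtn at 103 CPM in Nx10 and 30.5 CPM in Nx8 (1.72) and albumin Alb at 12.4 CPM in Nx10 and 0.930 CPM in Nx8 (2.80). Apob was at 285 CPM in Nx10 and 326 CPM in Nx8 (−0.20). The rule genes Ttr (−1.48), Spink1 (−1.49) and Rbp4 (−0.77) were lower at day 10. Other high ratios were the kinase receptor Bmpr1b (2.69), the secreted Wfdc2 (2.78), the phosphatase subunit Ppp2r2b (2.78) and the channel protein Ano3 (2.91).

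Of 16 p53 targets 11 were higher and 0 lower, with a median of 0.80 (0.52 to 0.97), against 4 and 0 of 17 in other cells (median 0.06), where 8.67% and 7.82% of all genes were. Eda2r, a receptor of the TNF family, was at 70.5 CPM in Nx10 and 16.9 CPM in Nx8 (2.00), the stress regulator Trp53inp1 at 165 CPM in Nx10 and 54.7 CPM in Nx8 (1.58) and the cell cycle inhibitor Cdkn1a at 362 CPM in Nx10 and 192 CPM in Nx8 (0.91). G2 and M phase genes were 12 higher and 0 lower of 53 (median 0.31), where in other cells 0 were higher and 7 lower (−0.29). The microtubule proteins Psrc1 (1.94) and Hmmr (1.24) were among those with the largest ratios. HIF targets were 14 higher and 2 lower of 49 between these normoxic libraries, with a median of 0.37, and 0.22 in other cells. The Shh-led group, with the highest G2 and M phase level, held 58.5% of the UMIs of Nx10 against 19.2% of those of Nx8.

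Lower at day 10 were Mt1, at 205 CPM in Nx10 and 949 CPM in Nx8 (−2.21), and Mt2, at 42.3 CPM in Nx10 and 238 CPM in Nx8 (−2.47), also lower in other cells (Mt1 −1.13, Mt2 −1.96). Of 15 uptake genes 7 were lower and 0 higher (median −0.61), among them Lgmn, at 48.1 CPM in Nx10 and 209 CPM in Nx8 (−2.09), which in other cells was at 82.3 CPM in Nx10 and 37.6 CPM in Nx8. Ghrl was at 113 CPM in Nx10 and 325 CPM in Nx8 (−1.52), and Car3, a carbonic anhydrase, at 1.66 CPM in Nx10 and 64.2 CPM in Nx8 (−8.32 to −3.41). The muscle and matrix genes Tnnc1 (−2.5) and Postn (−2.65) and the cell guidance gene Reln (−2.63) were lower too.

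Mesenchymal genes were lower in 11 of 15 and higher in 1 (median −1.78), against 6 higher and 5 lower of 20 in other cells (median 0.15). Col1a1 was at 29.0 CPM in Nx10 and 183 CPM in Nx8 (−2.61) and Zfpm2 at 8.30 CPM in Nx10 and 59.0 CPM in Nx8 (−2.69), while in other cells Zfpm2 was at 734 CPM in Nx10 and 480 CPM in Nx8. The Zfpm2-led group with most mesenchymal RNA had 1 cell in Nx10 and 14 in Nx8, and with the Shh-led group alone the mesenchymal median was 0.048. When cells with 3 of the 8 rule genes were included, the ratio of Col1a1 was 0.051. The part of the mix of groups in these ratios was not tested.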

How the data were processed

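RNA of dissociated embryoid body cells was counted per cell in 4 libraries. The deposited values are raw UMI counts per gene and barcode; per the submitters' processing notes they were made with Cell Ranger 7.1.0 and mm10. The sources used here do not state whether introns were included. The counts were checked to be whole numbers. The files list 32285 genes, 32235 of them with coordinates in GENCODE M21 (GRCm38); 38 symbols belonged to several IDs, and the one with most UMIs was taken.

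UMIs were summed over endoderm-like cells and over other kept cells of each library and scaled to CPM by total UMIs (scipy 1.17.1 and pandas 2.3.3 under Python 3.11.15). Ratios are log2 of CPM + 1. Intervals of levels are exact Poisson, those of shares exact binomial (Clopper-Pearson), and those of ratios exact conditional binomial without the pseudocount, so the ratio of a low gene can lie outside its interval. Total counts per sample and the resulting precision are given in the report. The filter was a mean of 5 CPM for list medians and 20 CPM for counts of genes, over the sums compared. For a level of 0 the floor was 3 counts per library. Members were clustered with Leiden at resolution 0.5 on 1500 variable genes, 20 components and 15 neighbours (scanpy 1.11.5, leidenalg 0.10.2), leaving out hypoxia, glycolysis, mitochondrial, cycle, stress and immediate early lists. The ratios, their intervals and the calls of genes were tested on simulated Poisson sums, which hold no variation between cells. The cell rule, thinning, clustering, list medians and TMM scaling were not tested in this way. Promoter letters come from RefSeq, GRCm38.p6.

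The cells, lists and rules were chosen with earlier results of these data known. Named genes left out mitochondrially encoded, ribosomal protein, Gm-numbered, Rik and clone symbols. They were the 15 highest and 10 lowest mean ratios over other cells, and the 10 highest and 10 lowest (with age, 8 and 8) ratios of a contrast among genes with at least 30 UMIs, a UMI in at least 10% of the cells of the higher library and no cell with over 25% of its UMIs. Up to 5 genes per list with the largest ratios, the 8 rule genes and 8 hypoxia genes were named too. Insig1 in Hx10, Flt1, Cdh5, single list genes with small ratios, the 4 keratin and GATA genes and those named for the mix of groups were chosen after their values were seen, as were the mt- genes. There were 16 alternatives planned and 5 added after seeing the data.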

Additional observations from a re-analysis of the deposited data

Results flagged for a closer look

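Some values of opposite sign in endoderm-like and other kept cells, or between the hypoxia contrasts, are given here, and the list is not complete. None of these differences was tested, since each condition had 1 library. By the 2-fold and 1.5-fold limits used above for Mt1 and Insig1, 36 genes had opposite ratios in the cell classes after 48 h and 20 with age. After 16 h of hypoxia the median log2 ratio of cholesterol biosynthesis genes was 0.29 in endoderm-like cells (0.2865) and −0.30 in other cells. In endoderm-like cells that median was 0.29 after 16 h and −0.54 after 48 h. Its sign after 16 h did not hold within groups, at −1.07 in the lipoprotein-led and −0.24 in the Rasgrf2-led group. Insig1 had a ratio of 1.17 in endoderm-like and −0.69 in other cells after 16 h, and Mt1 one of −1.84 in endoderm-like and 0.94 in other cells. In the lipoprotein-led and Rasgrf2-led groups, in that order, Insig1 was at 1.92 and 0.12 and Mt1 at −1.74 and −0.89.

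After 48 h the median of mesenchymal genes was 1.06 in endoderm-like and −0.73 in other cells. The widest gap of a gene was that of Cdh13 (3.66 in endoderm-like and −2.51 in other cells). Klf5, a transcription factor of gut epithelium, was at 31.8 CPM in Hx10 and 83.8 CPM in Nx10 in endoderm-like cells (−1.37), and at 40.2 CPM in Hx10 and 8.01 CPM in Nx10 in other cells (2.19).

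With age in normoxia the median of G2 and M phase genes was 0.31 in endoderm-like and −0.29 in other cells. Lgmn, a lysosomal protease, had −2.09 in endoderm-like and 1.11 in other cells, Zfpm2, a cofactor of GATA factors, −2.69 and 0.61 in the same order, and Kif26b, a kinesin-like protein, −2.48 and 0.74. The globins Hbb-bh1 (3.43 in endoderm-like and −3.95 in other cells), Hbb-y (2.20 and −3.18), Hba-x (2.54 and −3.73) and Hba-a1 (2.27 and −2.08) had opposite signs too. Of the Nx10 UMIs of Hba-x in endoderm-like cells 99.3% lay in 1 cell, of Hbb-y 99.4%, of Hbb-bh1 100% and of Hba-a1 97.9%.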

How the results depend on the processing

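No paired analysis was possible because each condition had 1 library and replicate numbers were given in accession order. Of 248 results counted across settings for shares, counts and list medians, 207 were classed as the same, 39 as moved and 2 as reversed. Results classed as the same could still shift in size. With the mean of the cells' own CPM, the 48 h medians were 0.50 for HIF targets (0.25 with the sums) and −1.19 for mitochondrially encoded genes (−0.74). Without members richer in mesenchymal than rule gene UMIs, the 48 h glycolysis median was 0.13 (0.41 with all members). With 3 or more rule genes the share in Nx8 was 7.86%, the mesenchymal median −0.21 at day 8 (0.37 with the rule as given) and −0.062 at day 10 (1.06), and Col1a1 with age 0.051 (−2.61). With 5 or more the share in Hx10 was 0.477%. Among cells of 5000 UMIs or more, thinned to 5000 UMIs, shares were 3.81% in Hx8, 5.97% in Nx8 and 1.07% in Nx10. Without members richer in UMIs of Col1a1, Col1a2, Col3a1, Dcn and Lum than of the rule genes, the day 8 mesenchymal median was −0.19. TMM scaling gave 64 genes lower after 16 h and 668 higher and 764 lower after 48 h, medians of −0.034 for S phase after 16 h, and after 48 h of 0.55 for HIF targets, −0.47 for mitochondrially encoded genes, −1.44 for S phase and 0.022 for nuclear oxidative phosphorylation (−0.25). It reversed Afp after 16 h (0.030) and mt-Co1 after 48 h (0.060). A pseudocount of 10 CPM gave 45, 831 and 110 genes lower after 16 h, after 48 h and with age, and −1.20 for S phase after 48 h. At 50 CPM or more, 125 genes were higher and 151 lower than in other cells, 105 and 31 after 16 h, 199 and 498 after 48 h, and 81 and 80 with age. With no filter these were 690 and 622, 482 and 966, 677 and 2062, and 712 and 685. Leaving out 1 library, 274 to 357 genes were higher and 303 to 440 lower than in other cells, the last without Hx10.

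Alternatives chosen after seeing the data concern day 8 unless said. Without the Zfpm2-led group, S phase was −0.055 and mesenchymal −0.30. In the lipoprotein-led group alone 302 genes were lower, S phase was 0.14, cholesterol −1.07 and mesenchymal −0.32. In the Rasgrf2-led group alone 302 were higher and 259 lower, S phase was 0.19 and cholesterol −0.24. With age, the mesenchymal median was 0.048 in the Shh-led group alone. After 48 h, without the stress-led group, HIF targets were at 0.12 and mitochondrially encoded genes at −0.41. The causes were not tested, apart from the smaller number of genes or cells that a filter or group leaves by its construction. Depth limits Hx10 most, where 1 UMI is 1.51 CPM.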
